A study of Homo sapiens with 4 samples.

Results

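The transcripts of SR proteins, heterogeneous nuclear ribonucleoproteins (hnRNPs) and other regulators of pre-mRNA splicing were examined in U87, an established human glioma cell line. All probe sets that the platform annotation assigns to exactly 1 gene were taken if that gene was an SRSF gene, an HNRNP gene or any of 17 further regulators, including the PTB, RBFOX, MBNL, CELF, TIA, U2AF and TRA2 genes. The rule gave 189 probe sets of 47 genes, of 37465 probe sets with a single gene and 41920 probe sets in all. The RNA came from cells carrying a knockdown of QK (QKI, an RNA-binding protein) in every sample. On top of it, 2 samples had been transduced with miR-20a and 2 with miR-NT, a scrambled microRNA that targets nothing by design. How the knockdown was made, and whether the samples of a group were separate cultures, is not stated in the labels. The p-values thus refer to the spread among these 4 samples alone, and part of it may be technical. Cells with normal QK levels were not analysed here. In RNA from whole cultures, fewer cells of a kind and less RNA per cell cannot be told apart.

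SR proteins carry an RNA recognition motif and a domain rich in arginine and serine, and mostly favour the inclusion of the exons they bind. hnRNPs coat nascent RNA and often repress splice sites, so the outcome at an exon depends on the balance of both families. PTB proteins, RBFOX, MBNL and CELF proteins add tissue-dependent control, and glial and neuronal cells differ in which of them they use. Many of these genes also regulate their own transcripts through exons or retained sequence that lead to RNA decay or nuclear retention, so that different probe sets of a gene can report different transcript forms.

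The microRNA supplied is shown with its seed, bases 2 to 8, in capitals, as the part that pairs with target transcripts. Both arms of the hairpin are given from RefSeq, because the labels name miR-20a without an arm. The 5′ arm lies at chr13:91351072-91351094 and the 3′ arm at chr13:91351108-91351129, both on the plus strand of GRCh38.p14.
hsa-miR-20a-5p: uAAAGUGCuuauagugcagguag
hsa-miR-20a-3p: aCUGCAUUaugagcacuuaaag
Matches to these seeds in the transcripts of the splicing regulators were not searched here.

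Each array gave 1 log2 level per probe set, with array medians between 6.97 and 7.01. There are no detection calls, and precision is limited by having 4 arrays. The SD over probe sets was 1.90 and 1.89 on the miR-20a arrays and 1.84 and 1.85 on the miR-NT arrays. As a sign of RNA quality, ACTB read 0.27 ± 0.11 log2 units higher at its 3′ than at its 5′ control probe set on miR-NT arrays and 0.49 ± 0.04 higher on miR-20a arrays (SD, n = 2 each). The part of this difference in the results below was not tested. QKI was at 9.18 and 9.38 on the miR-NT arrays and at 9.53 and 9.38 on the miR-20a arrays by its highest-mean probe set. There the groups overlapped, and 4 of its 10 probe sets had higher means with miR-20a. The QKI probe sets at a raw p under 0.05 (limma) were lower with miR-20a, without overlap. Their changes were -0.43 and -0.26 log2 units, with adjusted p-values of 0.17 and 0.25 (limma). Of the markers of U87 as a glial line, VIM (14.7) and CD44 (12.5), which marks mesenchymal glioma cells, had high mean log2 levels. SLC1A3 (8.89) and NES (8.10) were above the array median. GFAP (7.12) and OLIG2 (6.44), markers of astrocytes and oligodendrocytes, lay near the array median, as did SOX9 (7.09). Markers of other cell types had mean log2 levels on both sides of the array median. They ran from 4.66 (EPCAM) to 7.21 (KRT5) for epithelium, 4.78 (CDH5) to 8.70 (PECAM1) for endothelium, 6.62 (PTPRC) to 7.86 (CD3E) for blood and 6.43 (ELAVL4) to 9.06 (SNAP25) for neurons. Of 5 neuronal markers 4 had lower means with miR-20a, and the sum of the 5 log2 levels was 39.3 to 39.7 on miR-NT and 38.3 to 38.7 on miR-20a arrays. Lower means were also found for 5 of 7 glial, 4 of 4 epithelial, 2 of 3 endothelial and 1 of 2 measured blood markers, and 0 markers passed the limma test (5 were lower and 0 higher at a raw p under 0.05). The part of these cell type markers in the results was not tested.

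No splicing regulator passed the test between miR-20a and miR-NT cells. With limma over all 41920 probe sets and a Benjamini-Hochberg adjusted p under 0.05, 0 of the 189 probe sets were called in either direction, and the smallest adjusted p was 0.116. Over all probe sets 0.136% were called, 0.119% higher and 0.0167% lower. At a raw p under 0.05, before adjustment, 41 of the 189 probe sets were higher and 11 lower in miR-20a cells. Over all probe sets these shares were 9.46% higher and 8.40% lower, against 21.7% and 5.82% of the splicing regulators. These shares are not matched for the level of the probe sets. Whether the higher count rests on any single array was not tested. Dropping an array leaves 1 sample in its group, with no spread of its own, so counts at this p are not compared there. On dropping the first miR-NT array 121 of 189 means were higher, and on dropping the second 125, against 126 with all 4 arrays. Dropping the first miR-20a array gave 119, and dropping the second gave 123. Group values did not overlap for 80 probe sets that were higher and 30 that were lower, while 21.7% and 27.2% of all probe sets did so. In all, 126 of 189 had a higher mean in miR-20a cells, and the median log2 change was 0.08, against -0.02 over all probe sets. Leaving out each array in turn moved this median between 0.06 and 0.12.

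**Figure D1:**
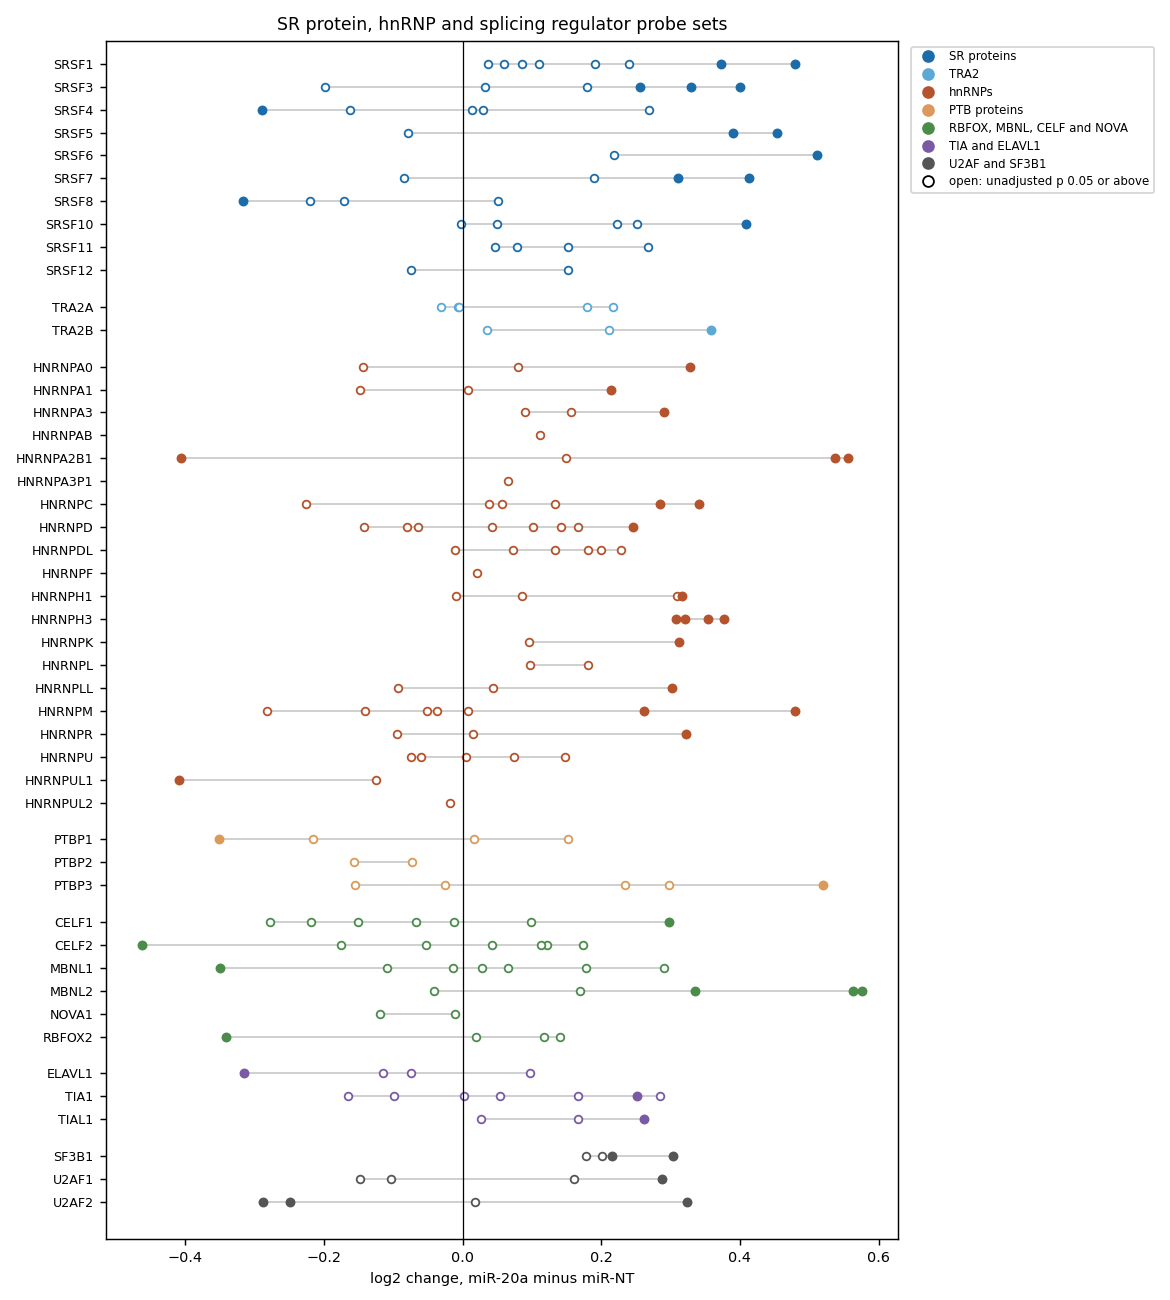
Each point is a probe set, placed on the horizontal axis by its log2 change (miR-20a mean minus miR-NT mean, 2 arrays each) and on the vertical axis by its gene. Filled points have a raw limma p under 0.05, grey lines span the probe sets of a gene, and 41 filled points lie to the right of 0 and 11 to the left.

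The differences followed the level of the probe set. In 4 bands of mean log2 level, drawn after seeing the data, 17 of 40 probe sets under 6 were higher with miR-20a, 26 of 55 from 6 to 8, 49 of 59 from 8 to 10, and 34 of 35 at 10 or more. The medians in the upper bands were 0.21 and 0.16, where all probe sets of those bands had medians of 0.04 and 0.14. Between 6 and 8 the splicing regulators had a median of -0.01 and all probe sets -0.05. After quantile normalization, which gives the 4 arrays the same distribution, the median of the splicing regulators at 10 or more was 0.0089 and that of all probe sets 0.0029. From 8 to 10 the median was 0.13 for the splicing regulators and -0.017 for all probe sets. There 43 of 59 splicing regulator probe sets were above 0, against 4515 of all 9645. Over all levels, quantile normalization left 25 probe sets higher and 11 lower at a raw p under 0.05, with 113 of 189 above 0. Under that scaling 8.04% of all probe sets were higher and 8.03% lower at this p. The Spearman correlation of change with mean level was 0.50 over the 189 probe sets and 0.22 over all 41920, as a description across probe sets of the same arrays.

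**Figure D2:**
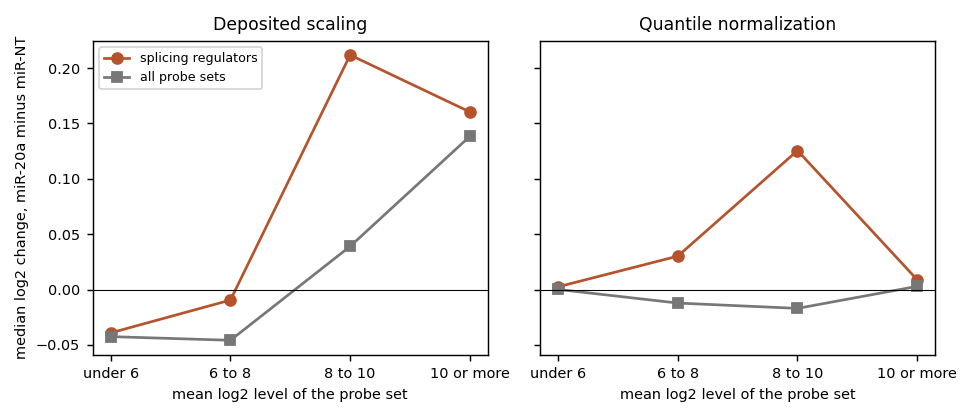
Median log2 change (vertical axis, miR-20a minus miR-NT) in 4 bands of mean log2 level (horizontal axis), for splicing regulator probe sets (circles) and all probe sets (squares), under the deposited scaling (left) and after quantile normalization (right). In the band from 8 to 10 the splicing regulators lie at 0.21 and 0.13 and all probe sets at 0.04 and -0.017.

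Among SR proteins, 33 of 43 probe sets of 10 genes had higher means in miR-20a cells, with a median of 0.15 that was 0.11 after quantile normalization. None passed over all probe sets. Among the 43, 11 were higher (25.6%) and 2 lower (4.65%) at a raw p under 0.05 (limma), against 9.46% and 8.40% of all probe sets. With each array left out in turn, 27 to 31 of 43 means were higher. SRSF1, the founding SR protein and a splicing oncogene, was above its miR-NT mean by all 8 probe sets (by 7 of 8 after quantile normalization). Its probe set 211784_s_at read 9.60 and 9.71 on miR-NT arrays and 10.18 and 10.09 on miR-20a arrays. The groups did not overlap, and the difference was 0.48 ± 0.09 log2 units or 1.40-fold (SE, limma adjusted p = 0.14). The probe set of SRSF1 with the highest mean, 201742_x_at, read 10.57 and 10.62 against 10.81 and 10.60. There the groups overlapped, and the difference of 0.11 turned to -0.04 after quantile normalization.

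SRSF5, an SR protein responsive to insulin and other growth signals, read 9.70 and 9.78 on miR-NT arrays and 10.28 and 10.09 on miR-20a arrays by 203380_x_at, a difference of 0.45 ± 0.10 (SE). Its probe set 212266_s_at differed by 0.39, while 210077_s_at differed by -0.08. SRSF10, which acts as a repressor when dephosphorylated during heat shock, read 8.23 on each miR-NT array and 8.61 and 8.67 on miR-20a arrays by 206095_s_at, without overlap. That difference was 0.41 ± 0.09 (SE, adjusted p = 0.14, limma), and the other 4 probe sets of SRSF10 lay between -0.0016 and 0.25. SRSF3, the smallest SR protein and an mRNA export adaptor, was higher by 5 of 6 probe sets. By 208673_s_at it read 8.51 and 8.61 against 9.06 and 8.86, and by 208672_s_at 10.86 and 11.07 against 11.27 and 11.32. The latter difference of 0.33 was 0.16 after quantile normalization.

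SRSF7, the closest relative of SRSF3 in its RNA recognition motif, read 8.21 and 8.27 on miR-NT arrays and 8.79 and 8.52 on miR-20a arrays by 201129_at. SRSF6, which regulates exon choice in keratinocytes and in tau, read 8.11 and 8.26 against 8.88 and 8.52 by 206108_s_at, and 9.59 and 9.64 against 9.93 and 9.74 by 208804_s_at. In these 3 probe sets the groups did not overlap, and miR-20a replicate 1 was the higher of its pair. The other probe sets of SRSF7 differed by 0.31, 0.19 and -0.08, and in the last, 211439_at, the groups overlapped (7.53 and 7.74 against 7.51 and 7.60). SRSF11, an SR-related protein, had higher means by all 4 probe sets, by 0.05 to 0.27, with overlapping groups in each. Lower values stood beside these: SRSF8, a retrogene copy of SRSF2, was lower by 3 of 4 probe sets, with 6.56 and 6.36 against 6.18 and 6.11 by 213152_s_at. SRSF4 read 5.02 and 5.01 against 4.66 and 4.79 by 241245_at, while 201696_at, its highest-mean probe set, differed by 0.01. The 2 probe sets of SRSF12 differed by -0.07 and 0.15, with overlapping groups.

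The TRA2 proteins are SR-like activators that bind purine-rich enhancers. TRA2B read 10.47 and 10.44 on miR-NT arrays and 10.83 and 10.80 on miR-20a arrays by 200893_at. The groups stood apart by far more than the spread within either, with a difference of 0.36 ± 0.09 (SE, limma adjusted p = 0.15), which was 0.21 after quantile normalization. All 3 probe sets of TRA2B were higher, by 0.03 to 0.36. TRA2A, its paralog, had 2 of 5 probe sets higher, but 5 of 5 after quantile normalization, median centring or cyclic loess, and by 204658_at read 8.70 and 8.92 against 9.09 and 8.89, with overlap. Over both genes 1 of 8 probe sets was higher (12.5%) at a raw p under 0.05 and 0 lower (limma), against 9.46% and 8.40% of all. After adjustment 0 of the 8 passed.

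**Figure D3:**
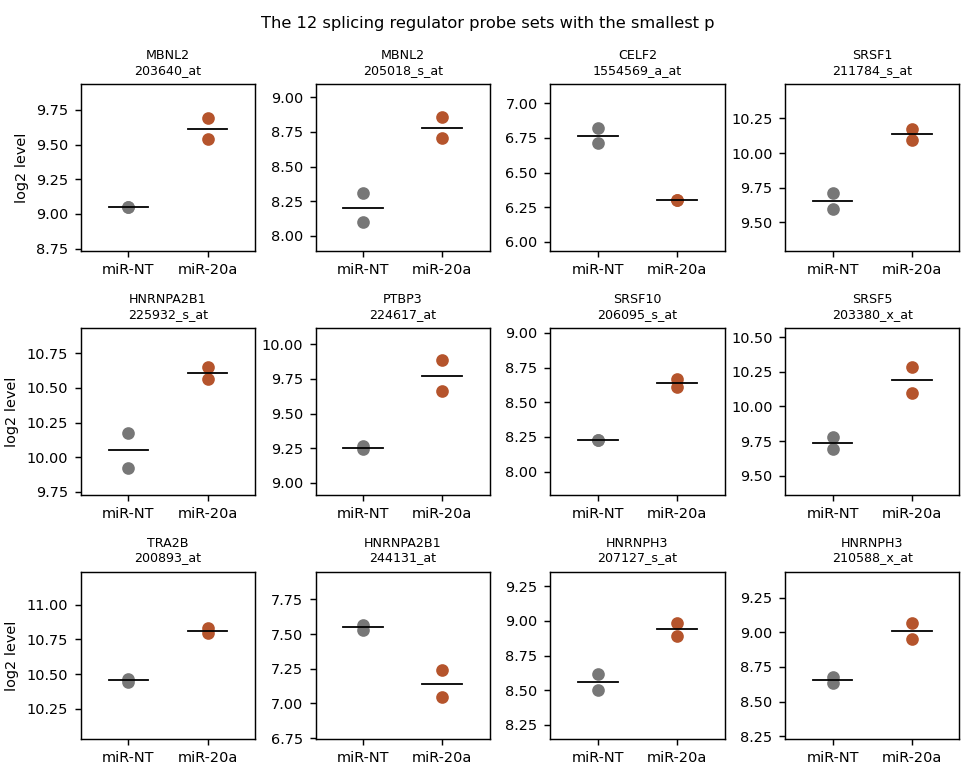
Log2 level (vertical axis, a span of 1.2 log2 units in every panel) on the 2 miR-NT arrays (grey) and the 2 miR-20a arrays (orange) for the 12 splicing regulator probe sets with the smallest limma p, with group means as bars. In 10 panels the miR-20a arrays lie above the miR-NT arrays and in 2, CELF2 and HNRNPA2B1 244131_at, below them, without overlap in any. The panels were picked by p from these same arrays, so the lack of overlap is no separate result. Of all probe sets, 21.7% were higher and 27.2% lower without overlap.

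Among hnRNPs, 49 of 69 probe sets of 20 genes had higher means, with a median of 0.09 that was 0.03 after quantile normalization, where 40 of 69 were higher. None passed, and 18 were higher (26.1%) and 2 lower (2.90%) at a raw p under 0.05 (limma), against 9.46% and 8.40% of all probe sets. After quantile normalization these were 7 and 3 of 69, where 8.04% and 8.03% of all probe sets were higher and lower. Leaving out each array in turn moved the median between 0.06 and 0.13, with 45 to 50 of 69 means higher. HNRNPH3, a member of the group that binds runs of G, gave the most even picture over its probe sets. Its 4 probe sets were higher by 0.31 to 0.38, all at a raw p under 0.05, and by 207127_s_at it read 8.50 and 8.62 against 8.99 and 8.89 (difference 0.38 ± 0.10, SE, adjusted p = 0.15, limma). Without miR-NT replicate 1, 4 of 4 means were higher, and after quantile normalization 3 of 4 probe sets were at that p. Its relative HNRNPH1 read 11.11 and 11.46 against 11.57 and 11.62 by 213619_at, and HNRNPF, another of that group, read 10.14 and 9.98 against 10.11 and 10.05.

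The A/B type hnRNPs, which antagonize SR proteins at splice sites, showed mixed values. HNRNPA2B1, which also sorts RNA in oligodendrocytes and neurons, read 9.92 and 10.18 on miR-NT arrays and 10.65 and 10.56 on miR-20a arrays by 225932_s_at, a difference of 0.56 ± 0.11 or 1.47-fold (SE, limma adjusted p = 0.14). By 225107_at it read 7.58 and 8.11 against 8.52 and 8.25. In the other direction, 244131_at read 7.57 and 7.53 against 7.24 and 7.04, a difference of -0.41 ± 0.10. The highest-mean probe set of the gene, 205292_s_at, differed by only 0.15. HNRNPA1, the most studied antagonist of SRSF1, read 10.06 and 10.04 against 10.31 and 10.22 by 214280_x_at, 0.21 higher, which was 0.09 after quantile normalization. Its other probe sets, 222040_at and 221919_at, differed by 0.0074 and -0.15, with overlap. HNRNPA0, linked to mRNA stability after DNA damage, read 9.75 and 9.97 against 10.22 and 10.15 by 201054_at, without overlap. Its probe set 229083_at went the other way, with 7.20 and 7.22 against 7.16 and 6.97. HNRNPA3, which binds telomeric repeats, was higher by all 3 probe sets and read 8.30 and 8.39 against 8.68 and 8.59 by 211929_at. HNRNPAB, measured by 1 probe set, read 12.17 and 12.09 against 12.29 and 12.19, and this difference of 0.11 turned to -0.04 after quantile normalization and after cyclic loess.

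Of the other hnRNPs, HNRNPM, which takes part in epithelial and mesenchymal splice choices, read 9.31 and 9.40 against 10.02 and 9.64 by 1555844_s_at, a difference of 0.48 ± 0.14 (SE). Only 3 of its 7 probe sets were above 0, with 214918_at at -0.28. HNRNPC, which binds U tracts and keeps U2AF off cryptic exons, read 9.73 and 9.93 against 10.13 and 10.21 by 200751_s_at, and 5 of its 6 probe sets were higher, but 3 of 6 after quantile normalization. HNRNPK, which binds C-rich RNA, and HNRNPL, which binds CA repeats, had 2 of 2 probe sets higher each, and 1 of 2 each after quantile normalization. HNRNPUL1, a nuclear protein related to HNRNPU, went the other way by both probe sets, with 9.59 and 9.33 against 9.15 and 8.96 by 209675_s_at, a difference of -0.41 ± 0.12 (SE, limma adjusted p = 0.19). HNRNPU, which organizes chromatin as well as splicing, differed by -0.07 to 0.15 over 5 probe sets. HNRNPD (AUF1), which promotes the decay of AU-rich transcripts, had 5 of 8 probe sets higher and read 9.89 and 10.01 against 10.27 and 10.12 by 200073_s_at. Its relative HNRNPDL had 5 of 6 higher, by at most 0.23. HNRNPR read 10.40 and 10.56 against 10.89 and 10.71 by 208766_s_at, and HNRNPLL, a splicing regulator of activated T cells, 8.92 and 8.89 against 9.32 and 9.10 by 225386_s_at. HNRNPUL2 differed by -0.018, with overlap. HNRNPA3P1, a pseudogene that the symbol rule takes in, differed by 0.07 at a level of about 4.4 log2 units.

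The PTB proteins repress exons through pyrimidine tracts, and PTBP2 replaces PTBP1 in neurons. Of their 11 probe sets 5 were higher and 6 lower, and 0 passed. A raw p under 0.05 (limma) was found for 1 higher and 1 lower probe set (9.09% each), against 9.46% and 8.40% of all. PTBP1 read 10.87 and 10.92 on miR-NT arrays and 11.05 and 11.05 on miR-20a arrays by 211270_x_at, 0.15 higher, which became -0.02 after quantile normalization. By 231158_x_at it read 7.24 and 7.20 against 6.97 and 6.77, or 0.35 ± 0.10 (SE) below miR-NT. PTBP2 was at 5.73 and 5.44 against 5.57 and 5.46 by 218683_at, with overlap. PTBP3, the paralog first known from blood cells, read 9.24 and 9.26 against 9.89 and 9.66 by 224617_at, a difference of 0.52 ± 0.11 or 1.43-fold (SE, limma adjusted p = 0.14), and 3 of its 5 probe sets were higher.

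MBNL2 had the smallest p of all 47 genes. MBNL proteins drive the switch from fetal to adult splicing, and MBNL2 is the main form in brain. By 203640_at it read 9.05 on each miR-NT array and 9.69 and 9.54 on the miR-20a arrays, a difference of 0.56 ± 0.10 or 1.48-fold (SE, limma adjusted p = 0.12). By 205018_s_at it read 8.31 and 8.10 against 8.86 and 8.71, a difference of 0.58 ± 0.11, and by 205017_s_at 8.39 and 8.36 against 8.57 and 8.85. In these 3 probe sets both miR-20a arrays lay above both miR-NT arrays. Its other probe sets, 1553536_at and 232138_at, differed by 0.17 and -0.04. After quantile normalization the first difference was 0.47 and the second 0.53. MBNL1, its paralog, had 4 of 7 probe sets higher, with 201152_s_at at 10.43 and 10.52 against 10.54 and 10.47, and 233015_at at 7.07 and 6.99 against 6.76 and 6.61.

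CELF proteins act against MBNL proteins at many exons. CELF2 read 6.82 and 6.71 on miR-NT arrays and 6.30 and 6.31 on miR-20a arrays by 1554569_a_at, or 0.46 ± 0.09 lower (SE, limma adjusted p = 0.14), with the miR-20a arrays almost equal. Its highest-mean probe set, 202157_s_at, read 9.10 and 9.02 against 9.20 and 9.16, and 4 of 7 probe sets were above 0. CELF1 had 2 of 7 probe sets above 0, with 209489_at at 9.85 and 9.97 against 10.05 and 9.97, where the groups overlapped, and its difference of 0.10 turned to -0.02 after quantile normalization and after cyclic loess. By 221743_at CELF1 read 9.26 and 9.29 against 9.63 and 9.52, without overlap, a difference of 0.30 ± 0.09 (SE, limma adjusted p = 0.19) that was 0.40 above the mean of its other probe sets. RBFOX2, which reads GCAUG motifs, read 5.61 and 5.54 against 5.20 and 5.27 by 213898_at, while its other 3 probe sets lay between 0.02 and 0.14. NOVA1, a neuronal regulator, differed by -0.01 and -0.12. Over these 6 genes 4 of 32 probe sets were higher (12.5%) and 3 lower (9.38%) at a raw p under 0.05 (limma). The shares over all probe sets were 9.46% and 8.40%. After adjustment 0 of the 32 passed.

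TIA1 and TIAL1 bind U-rich RNA next to weak splice sites and form stress granules, and ELAVL1 (HuR) stabilizes AU-rich transcripts. TIAL1 read 9.04 and 9.06 on miR-NT arrays and 9.33 and 9.30 on miR-20a arrays by 202406_s_at, a difference of 0.26 ± 0.09 (SE, limma adjusted p = 0.21), and all 3 probe sets were above 0. TIA1 had 5 of 7 probe sets above 0, but its highest-mean probe set, 201447_at, read 7.79 and 8.004 against 7.72 and 7.74. The TIA1 probe set 1554889_at had the lowest mean of the 189, at 4.15 and 3.99 against 3.93 and 4.01. ELAVL1 read 10.84 and 10.80 against 10.78 and 10.72 by 201726_at, a small difference of -0.07 that was -0.24 after quantile normalization. Of these 14 probe sets 0 passed, with 2 higher (14.3%) and 1 lower (7.14%) at a raw p under 0.05 (limma), against 9.46% and 8.40% of all.

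U2AF1 and U2AF2 form the factor that recognizes the 3′ splice site, and SF3B1 holds the branch point in the U2 complex. SF3B1 was higher by all 4 probe sets, by 0.18 to 0.30, also after quantile normalization, where its median of 0.21 became 0.08. By 201071_x_at it read 10.38 and 10.36 against 10.71 and 10.63, a difference of 0.30 ± 0.09 (SE, limma adjusted p = 0.18). U2AF1 read 10.93 and 10.94 on miR-NT arrays and 11.09 and 11.10 on miR-20a arrays by 202858_at. That difference, 0.16, became -0.005 after quantile normalization. U2AF2 read 9.39 and 9.45 against 9.83 and 9.66 by 218381_s_at, but 8.22 and 7.94 against 7.75 and 7.84 by 214171_s_at and 6.02 and 5.97 against 5.71 and 5.77 by 229508_at. Over the 3 genes 0 of 12 probe sets passed. Of the 12, 4 were higher (33.3%) and 2 lower (16.7%) at a raw p under 0.05 (limma), against 9.46% and 8.40% of all probe sets. After quantile normalization these were 2 and 1, where 8.04% and 8.03% of all probe sets were higher and lower. Without miR-NT replicate 1, 7 of 12 means were higher, with a median of 0.15.

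Probe sets of the same gene could differ in direction. Of the 43 genes with at least 2 probe sets, 10 had all of them higher, 3 had all lower and 30 were mixed, where 18.1% and 25.8% of 9835 such genes on the array had all higher and all lower and 5513 were mixed. HNRNPA2B1 and U2AF2 had probe sets at a raw p under 0.05 in both directions, as did 162 of the 9835 genes. Each probe set was therefore tested against the mean of the other probe sets of its gene with limma's diffSplice, a test added after seeing the data. None of 185 passed at an adjusted p under 0.05, against 0.128% of 28996 on the array, and 41 had a raw p under 0.05, against 12.4%. The smallest adjusted p was 0.067, for HNRNPA2B1 244131_at, which was 0.82 log2 units below the other probe sets of its gene. It passed with low probe sets left out (adjusted p = 0.045, limma) and with a crossed pairing of the arrays (0.043). With median centring its adjusted p was 0.075 (limma). It was 0.10 or above with quantile normalization, cyclic loess, the replicate block and removal of _x_at and _s_at probe sets. How many of all probe sets passed under these settings was not counted. CELF2 1554569_a_at was 0.50 below the others (adjusted p = 0.076, limma). SRSF3 237485_at was 0.44 below and RBFOX2 213898_at 0.43 below, with adjusted p-values of 0.11 and 0.12 (limma). By an F test over all probe sets of a gene, 0 of 43 genes passed, against 0.203% of the array's genes, and 17 had a raw p under 0.05, against 14.6%. The 43 genes have more probe sets per gene (185 in all) than the 9835 genes (28996 in all). The shares of genes with mixed, opposite or differing probe sets were not matched for this number. Which transcript form each probe set reads was not examined here.

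**Figure D4:**
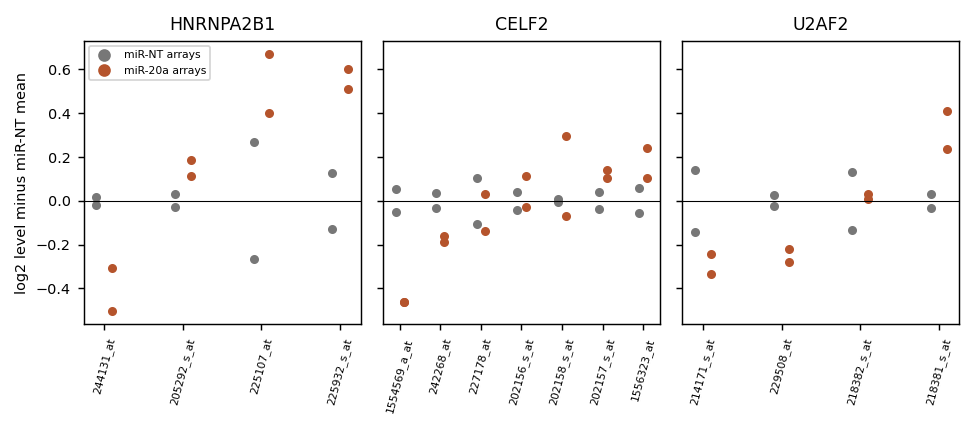
Log2 level minus the miR-NT mean of the same probe set (vertical axis) on the miR-NT arrays (grey) and the miR-20a arrays (orange), for each probe set (horizontal axis) of HNRNPA2B1, CELF2 and U2AF2. In HNRNPA2B1 the miR-20a arrays lie below the miR-NT arrays for 244131_at and above them for the other 3 probe sets.

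The kind of probe set also went with the direction. Identifiers ending in _s_at mark probe sets matching several transcripts, and those ending in _x_at probe sets with some probes that may match other sequences. Of the splicing regulator probe sets, 54 of 67 with _s_at, 20 of 24 with _x_at and 51 of 93 with a plain _at ending were higher, with medians of 0.21, 0.11 and 0.02. Over all probe sets of these kinds the medians were 0.005, -0.03 and -0.03, and 51.1%, 44.1% and 42.4% were higher. The kinds were not matched for mean level, which the direction also followed. Of the 5 ending in _a_at, which match transcripts of 1 gene, 1 was higher, with a median of -0.15 against -0.03 over all of that kind. With the first 2 kinds left out, the median of the splicing regulators was 0.01 over 98 probe sets.

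The rest of the splicing pathway was read from lists of other genes, chosen by their known function. Among 49 measured genes of the snRNPs and the core spliceosome, 0 of 93 probe sets passed, and the median was 0.05. At a raw p under 0.05 (limma), 11 were higher (11.8%) and 5 lower (5.38%), against 9.46% and 8.40% of all probe sets. SNRPG, a ring protein of the spliceosomal snRNPs, read 10.17 and 10.53 against 10.85 and 11.02, BCAS2, a subunit of the Prp19 complex, 8.95 and 9.24 against 9.63 and 9.58, and SNRPB2, a U2 protein, 9.41 and 9.60 against 9.91 and 9.81. Among 8 genes of SR protein kinases and import, 0 of 21 probe sets passed. At a raw p under 0.05 (limma), 3 were higher (14.3%) and 2 lower (9.52%). The kinase genes DYRK1A, CLK4 and SRPK1 differed by 0.25, 0.28 and 0.20 by their highest-mean probe sets.

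Among 10 genes of SR-related and exon junction proteins, 0 of 33 probe sets passed. At a raw p under 0.05 (limma), 4 were higher (12.1%) and 3 lower (9.09%), against 9.46% and 8.40% of all probe sets. SCAF1, an SR-like protein that binds RNA polymerase II, read 8.31 and 7.88 against 7.58 and 7.20, a difference of -0.70 with a wide spread. ACIN1, a component of the apoptosis and splicing associated complex, differed by -0.22, and PNN, a nuclear speckle protein, by 0.18, which was 0.01 after quantile normalization. Among 42 further regulators, 0 of 140 probe sets passed. At a raw p under 0.05 (limma), 12 were higher (8.57%) and 8 lower (5.71%), both below the shares over all probe sets. TARDBP, which encodes TDP-43, read 9.98 and 9.87 against 10.41 and 10.31. RBM15, an adaptor for RNA methylation, read 8.33 and 8.36 against 8.75 and 8.90. RBM17, a 3′ splice site factor, read 9.39 and 9.30 against 8.93 and 8.92, a difference of -0.42. Among 6 genes of nonsense-mediated decay, 0 of 11 probe sets passed. At a raw p under 0.05 (limma), 0 were higher and 5 lower (45.5%, against 8.40% of all probe sets). Of these genes SMG5 differed by -0.22, UPF2 by 0.13 and SMG6 by -0.07.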

How the data were processed

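The deposited table holds log2 probe-set levels, 1 per array, from 4 biotin-labelled Affymetrix samples made from 6 ug of total RNA, per the labels' protocols. Per the submitters' processing notes affy was used. Its version and how the authors corrected background, normalized and summarized were not given in those notes. Base 2 was inferred from the range of values. GEO's platform annotation gave the gene of each probe set, and 0 symbols changed when compared by Entrez identifier with RefSeq (GRCh38.p14). Of 41920 probe sets beside 10 array controls, 37465 named 1 gene, 1727 several and 2728 none. No values were filtered.

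The comparison used lmFit and eBayes of limma 3.58.1 (R 4.3.3) with a group term, Benjamini-Hochberg adjustment over all 41920 probe sets, a threshold of 0.05 and 2-sided p-values. Raw p-values are those before adjustment. With 2 arrays against 2, an exact permutation test cannot go below p = 0.333. The fits were tested on simulated data. The members and lists were chosen with earlier results of these data known. Named were probe sets past the threshold, the 12 with the smallest p, the 3 genes per class and pathway list with the smallest p, genes with opposite probe sets, SRSF1, HNRNPA1, PTBP1, PTBP2, QKI and the highest and lowest levels. Other members are given as description, chosen after their values were seen. Alternatives were other scalings, a filter below the 40th percentile, eBayes with trend and robust settings, 1 value per gene (highest-mean or averaged probe set), removal of _x_at and _s_at probe sets, thresholds of 0.01 and 0.10, a replicate block and leaving out each array.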

Additional observations from a re-analysis of the deposited data

Results flagged for a closer look

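The control probe sets of ACTB enter no comparison, but their 3′ minus 5′ difference was 0.486 log2 units on the miR-20a arrays, above the 0.272 of the miR-NT arrays. The part of this difference in the values of the splicing regulators was not tested.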

How the results depend on the processing

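No splicing regulator probe set passed under the deposited scaling. Under quantile normalization, median centring and cyclic loess the count was again 0. It stayed 0 with both ways of joining the probe sets of a gene, removal of _x_at and _s_at probe sets and a threshold of 0.10. Under these settings 0.069% to 0.836% of all probe sets or genes passed. At a threshold of 0.01, 0 of all 41920 probe sets passed, so the count could not differ from 0 there. With low probe sets left out, 1 of 137 passed, MBNL2 203640_at (limma adjusted p = 0.046). That is 0.73%, against 1.33% of all 25152 probe sets kept. With a trend and robust fit 7 were higher and 0 lower (3.70% of 189, against 2.28% of all probe sets): MBNL2 203640_at and 205018_s_at, HNRNPA2B1 225932_s_at, PTBP3 224617_at, SRSF1 211784_s_at, SRSF5 203380_x_at and TRA2B 200893_at, with limma adjusted p-values from 0.024 to 0.044. That fit also called 2 probe sets of the pathway lists higher and 2 lower. The median change of 0.08 was 0.13 with low probe sets left out, 0.15 with the highest-mean probe set of each gene and 0.011 without _x_at and _s_at, and between 0.062 and 0.12 with each array left out.

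The labels do not say that the replicate numbers pair the samples. The deviations of same-numbered arrays from their group means had r = -0.12 across probe sets, and with 2 arrays a group the crossed pairing has the same r with its sign turned, so this check does not settle the pairing. With the replicate number as a block 0 of all 41920 probe sets passed (limma). There 30 splicing regulator probe sets were higher (15.9%) and 9 lower at a raw p under 0.05 (limma), against 7.56% and 6.17% of all. With the crossed pairing, added after seeing the data, 0 of all 41920 passed (limma). There 43 splicing regulator probe sets were higher (22.8%) and 11 lower at a raw p under 0.05 (limma), against 9.49% and 8.03% of all. With this pairing 1 probe set differed from the others of its gene. That was also 1 with low probe sets left out. At a threshold of 0.10 these were 2 probe sets and 1 gene. The shares of all probe sets and genes that passed the within-gene test under these settings were not counted.

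Some differences turned sign. After quantile normalization HNRNPAB was at -0.039, PTBP1 at -0.017, CELF1 at -0.020, SRSF1 201742_x_at at -0.042 and U2AF1 at -0.0050, and after cyclic loess HNRNPAB was at -0.036, CELF1 at -0.016 and SRSF1 at -0.023. Averaged over the probe sets of the gene, QKI was at -0.080, PTBP1 at -0.099, CELF1 at -0.047, CELF2 at -0.034, TIA1 at 0.071, U2AF2 at -0.049, DYRK1A at -0.033 and SRPK1 at -0.052. With arrays left out in turn, PTBP2 ranged from -0.22 to 0.069 (the highest without miR-NT replicate 1) and SMG6 from -0.17 to 0.029 (the highest without miR-20a replicate 1). Of 659 values of 51 named probe sets under these settings, 630 kept their direction and side of the threshold, 11 newly passed and 18 turned sign. The cause was not tested. The within-gene test was not run with the trend and robust fit or with 1 value per gene.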

Other observations

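A further 19 probe sets were annotated to a gene of these families together with another gene, and entered no result above. The symbols SRSF2, SRSF9 and HNRNPH2 occur only among them. Of the 19, 15 had higher and 4 lower means with miR-20a, with changes between -0.34 and 0.48 log2 units and a median of 0.09. None passed over all probe sets. At a raw p under 0.05 (limma), 4 were higher (21.1%) and 1 lower (5.26%), against 9.46% and 8.40% of all probe sets. Their groups did not overlap for 10 higher (52.6%) and 3 lower (15.8%) probe sets, against 21.7% and 27.2% of all.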
